A study of Mus musculus with 8 samples.

Results

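This comparison set Gli1+ peribiliary mesenchymal cells against stellate cells of the mouse liver 5 d after bile duct ligation (BDL), the surgical block of bile flow that is used as a model of cholestatic injury. It rests on 4 of the 8 libraries of the study, 2 per population, chosen by their titles, and it covers the 16446 genes that reached 1 CPM or more in 2 or more of the 8 libraries. CPM is the number of reads of a gene per 1000000 reads of the library. The other 4 libraries, 2 per population from uninjured mice, entered the same fit and serve here as the reference before injury. All 4 groups came from mice of 8 weeks on a mixed background of C57BL/6 and SWR/J with the genotype Gli1:CreER+/-; Ai9+/-, so the stellate cell donors carried the same alleles. In such mice an inducible Cre recombinase is made where Gli1 is active and can switch on the red fluorescent protein of the Ai9 reporter. Livers were digested with pronase and collagenase, cells were passed over a gradient and sorted into RNA buffer, and full-length cDNA libraries were made with SMART-Seq2. The sources used here do not give the sort gates, the use of an inducer or the number of animals behind each library. P-values therefore measure only how far replicate libraries spread, and part of that spread may be technical.

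Stellate cells lie between hepatocytes and sinusoidal endothelium, store retinol as esters and touch nerve endings and vessels. Gli1, a transcription factor switched on by Hedgehog signals, marks mesenchymal cells around bile ducts and vessels of the portal tract in mouse liver. Both kinds of cell can turn into matrix-forming myofibroblasts in liver injury, and blocked bile flow injures the portal tract first. The question the comparison addresses is which functions part these populations when bile flow is blocked.

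Library totals after BDL were 12406792 and 16704166 reads in Gli1+ replicates 1 and 2 and 17129100 and 11771666 reads in stellate replicates 1 and 2. Below, values stand in this order, Gli1+ replicates 1 and 2 against stellate replicates 1 and 2. In the 4 libraries 18919 to 22897 genes had a read, and 3 reads in a library equal 0.175 to 0.255 CPM. The rank correlation across genes was 0.879 between the Gli1+ and 0.869 between the stellate replicates. Gli1 itself (chromosome 10, 127329882 to 127341974, minus strand) was read at 6.61 and 2.39 CPM against 0.0584 and 0 CPM, and the stellate value rests on 1 read over both libraries. Its ratio over the groups was 121 (95% interval 21.3 to 4823, counting error only), and its limma Benjamini-Hochberg (BH) adjusted p was 0.0994. The labels were also checked with lists of marker genes. The 24 stellate markers summed to 2142 and 2431 against 44696 and 38505 CPM, and the 22 portal and adventitial fibroblast markers to 6667 and 6084 against 1710 and 1877 CPM. Both lists pointed the way the labels say, without overlap between libraries.

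**Figure D1:**
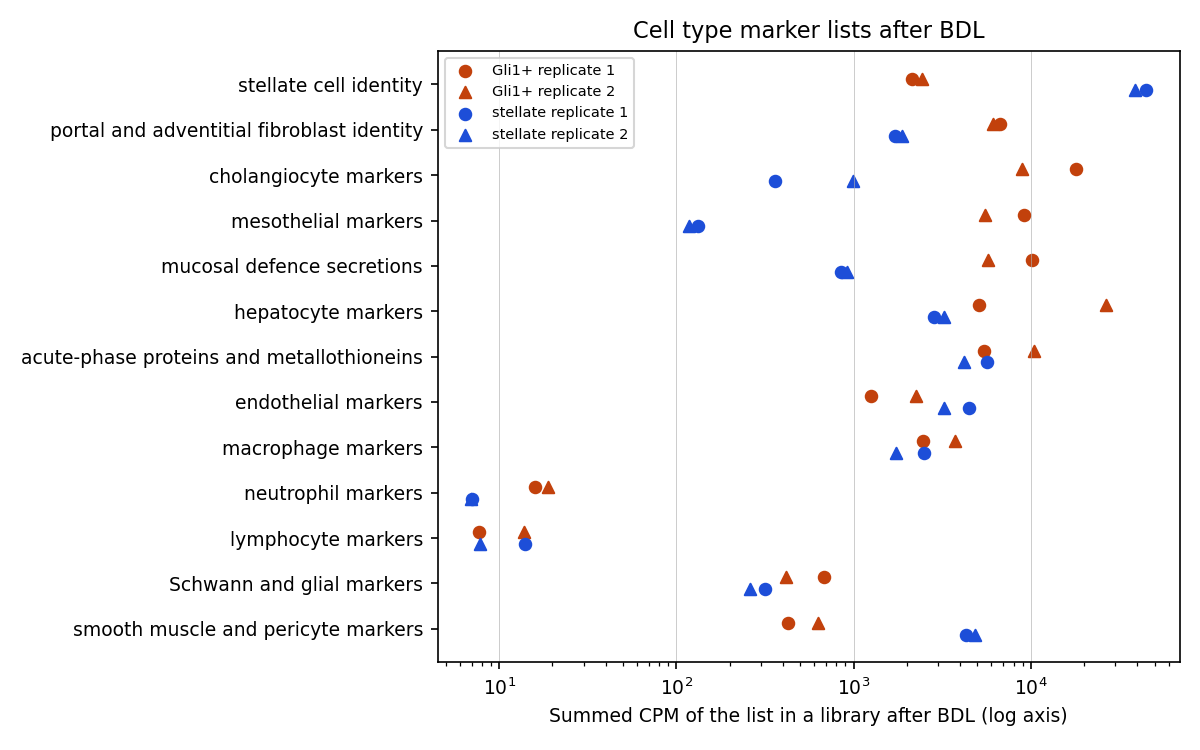
Summed CPM of each cell type marker list in the 4 libraries after BDL, on a log axis, with orange for Gli1+ and blue for stellate libraries and with circles for replicate 1 and triangles for replicate 2. Cholangiocyte, mesothelial and mucosal lists sit higher in both Gli1+ libraries, the stellate list sits higher in both stellate libraries, and Gli1+ replicate 2 has the highest hepatocyte sum, at 26486 CPM.

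Markers of other cells were present in the sorts and stand beside the results below. The 19 cholangiocyte markers reached a sum of 18025 and 8871 against 361 and 994 CPM, and 5 and 4 of them were at 0 in the stellate libraries. The 15 mesothelial markers summed to 9174 and 5498 against 133 and 117 CPM, with 1 at 0 in stellate replicate 1. Hepatocyte markers (24 genes) summed to 5117 and 26486 against 2850 and 3229 CPM, so Gli1+ replicate 2 stood apart from the other 3 libraries, and its mitochondrial share of CPM, 5.72%, was also the highest (3.50% in Gli1+ replicate 1, 1.72 and 2.73% in the stellate libraries). Endothelial markers (20 genes) summed to 1262 and 2253 against 4463 and 3237 CPM, and macrophage markers (20 genes) to 2458 and 3727 against 2497 and 1738 CPM. Smooth muscle and pericyte markers (18 genes) summed to 426 and 632 against 4293 and 4843 CPM; 3 of these, Rgs5, Abcc9 and Kcnj8, are also made by stellate cells and carried most of that sum. The part of these cells in the results was not tested. In sorted bulk RNA, fewer cells of a type and less RNA per cell cannot be told apart.

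Of the 16446 genes, 1118 (6.8%) passed the limma BH-adjusted threshold of 0.05 between the populations after BDL, 730 higher (4.44%) and 388 lower (2.36%) in Gli1+ cells. These shares are the background for every count of list members below. Differences are log2 of (CPM + 1), Gli1+ minus stellate, with the standard error (SE) of the fit, and this scale understates differences of genes with few reads. Genes that passed had differences of at least 1.27 in size, with a median of 3.63, while the median of all genes stood at 0.23. After TMM scaling that median moved to 0.09 and the split to 666 higher and 436 lower. Both Gli1+ libraries lay above or below both stellate libraries in 53.9% of genes, 34.8% above and 19.0% below. The calls depended on the libraries. Without Gli1+ replicate 1 or 2 the 1118 genes became 238 and 428, and without stellate replicate 1 or 2 they became 144 and 191; in such a fit the lone library of a group is assumed to vary like the other groups. The word "held" is used below for the 107 genes (57 higher, 50 lower) whose higher group averaged 20 CPM or more and that passed in each of these 4 fits and after TMM scaling, without overlap between libraries. Separate library ranges of a held gene follow from this definition and add no support. For most genes that are not held, the largest limma BH-adjusted p among the 4 fits is given.

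**Figure D2:**
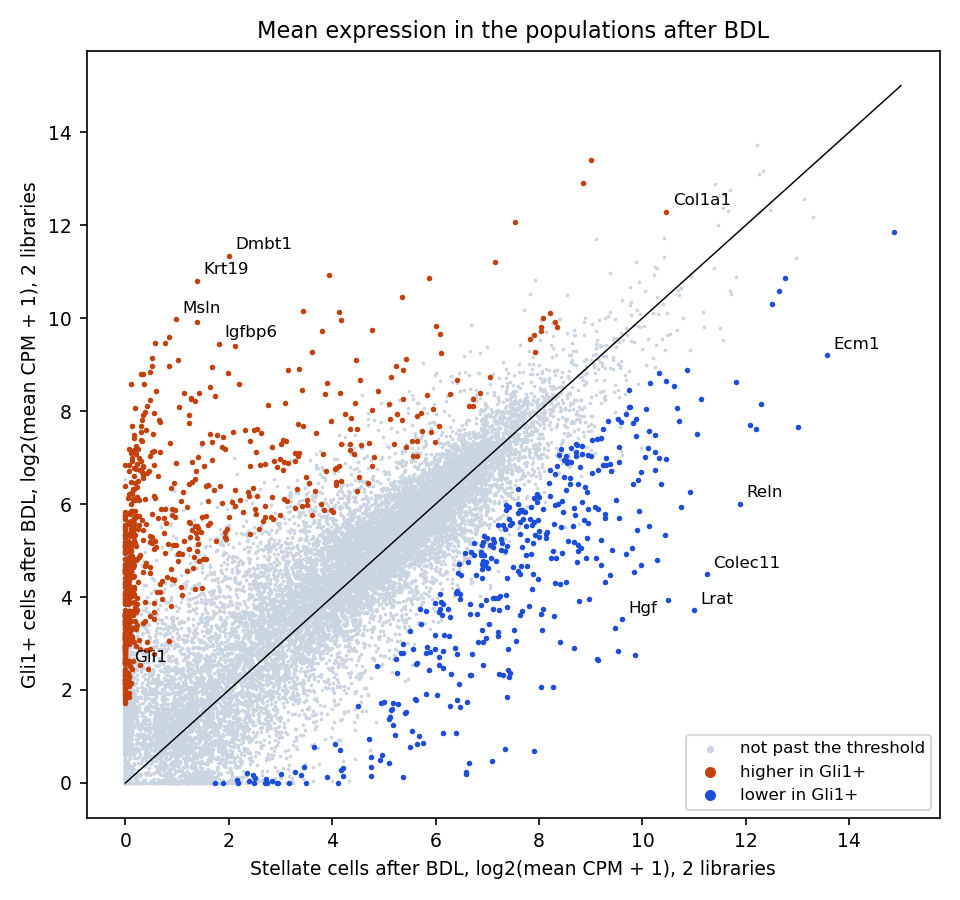
Each point is a gene tested, with log2(mean CPM + 1) of the 2 stellate libraries on the x axis and of the 2 Gli1+ libraries on the y axis, and the line marks equal means. Orange points (730) were higher and blue points (388) lower in Gli1+ cells at a limma BH-adjusted p under 0.05. Gli1 lies among the grey points that did not pass.

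Lrat, which stores retinol, and the collectins Colec10 and Colec11 were high in both stellate libraries after BDL and low in both Gli1+ libraries. Of 24 genes listed for stellate cell identity, 23 were lower in Gli1+ cells, with a median difference of -5.01, and 12 of these held. The list was chosen to mark these cells, so its direction is a check of the labels and no independent finding. The same holds for its members named under other functions below: Ngfr, Reln, Hgf, Hhip, Angptl6, Ecm1, Sod3, Pdgfrb, Des, Hand2, Vipr1, Pth1r and Ednrb. Lrat (chromosome 3, 82892579 to 82903973, minus strand), which makes the storage ester of retinol, was read at 5.16 and 19.3 CPM against 2161 and 1907 CPM. Colec10 was read at 3.14 and 8.38 CPM against 941 and 917 CPM and Colec11 (chromosome 12, 28594173 to 28623377, minus strand) at 10.7 and 32.1 CPM against 2703 and 2176 CPM. Both encode secreted lectins that bind sugars on microbes and start the lectin pathway of complement. All 4 library values of each gene lay in separate ranges by population, and the group means of Colec11 differed 114-fold. The differences were -7.51 ± 0.61 for Lrat, -7.22 ± 0.43 for Colec10 and -6.94 ± 0.70 for Colec11 (SE; limma BH-adjusted p = 0.000679, 0.000366 and 0.00135). Masp1, the protease that works with these lectins and was named after its values were seen, was read at 2.98 and 9.82 CPM against 246 and 87.7 CPM. It passed at a limma BH-adjusted p of 0.0322 but reached 0.28 when 1 library was left out. Adamts13, the protease that cuts von Willebrand factor, was at 0.484 and 0.718 CPM against 318 and 161 CPM and held (difference -7.15 ± 0.74). Vwf, which encodes that factor and is an endothelial marker, stood the other way at 74.6 and 165 CPM against 7.18 and 10.3 CPM. It passed (3.54 ± 0.72, limma BH-adjusted p = 0.0218) but did not hold. Most endothelial markers did not share its direction. Of 20 tested, 1 was higher and 1 lower in Gli1+ cells, against 4.44% and 2.36% of all genes. Their median difference was -0.80, and 4 of the 20 lay above 0.

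Other retinoid genes did not all share the direction of Lrat. Of 21 genes of retinoid storage and retinoic acid, 3 were lower and 2 higher in Gli1+ cells, around a median of 0.08 (-0.09 after TMM scaling). Aldh1a2, which makes retinoic acid and is also abundant in mesothelium, was read at 49.4 and 65.3 CPM against 0.759 and 1.1 CPM. Cyp26a1, which breaks retinoic acid down, was read at 11.4 and 31 CPM against 0.117 and 0 CPM, where the stellate value rests on 2 reads and the ratio was 328 (95% interval 90.3 to 2711). Neither held, with limma BH-adjusted p of 0.0065 and 0.00674 and up to 0.0789 and 0.0854 without 1 library. Among 30 nuclear receptors, Pparg was higher and Nr1h4, the bile acid receptor FXR, was lower in Gli1+ cells. Nr1h4 was at 45.7 and 34.5 CPM against 175 and 219 CPM and Pparg, a receptor known from fat cells, at 51.1 and 19.1 CPM against 0.175 and 0.595 CPM, and neither held (largest limma BH-adjusted p 0.238 and 0.186). Nr1h5, a close relative of Nr1h4 that is not counted in that list, was at 0.403 and 0.898 CPM against 145 and 178 CPM and held (-6.63 ± 0.56; limma BH-adjusted p = 0.000873).

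**Figure D3:**
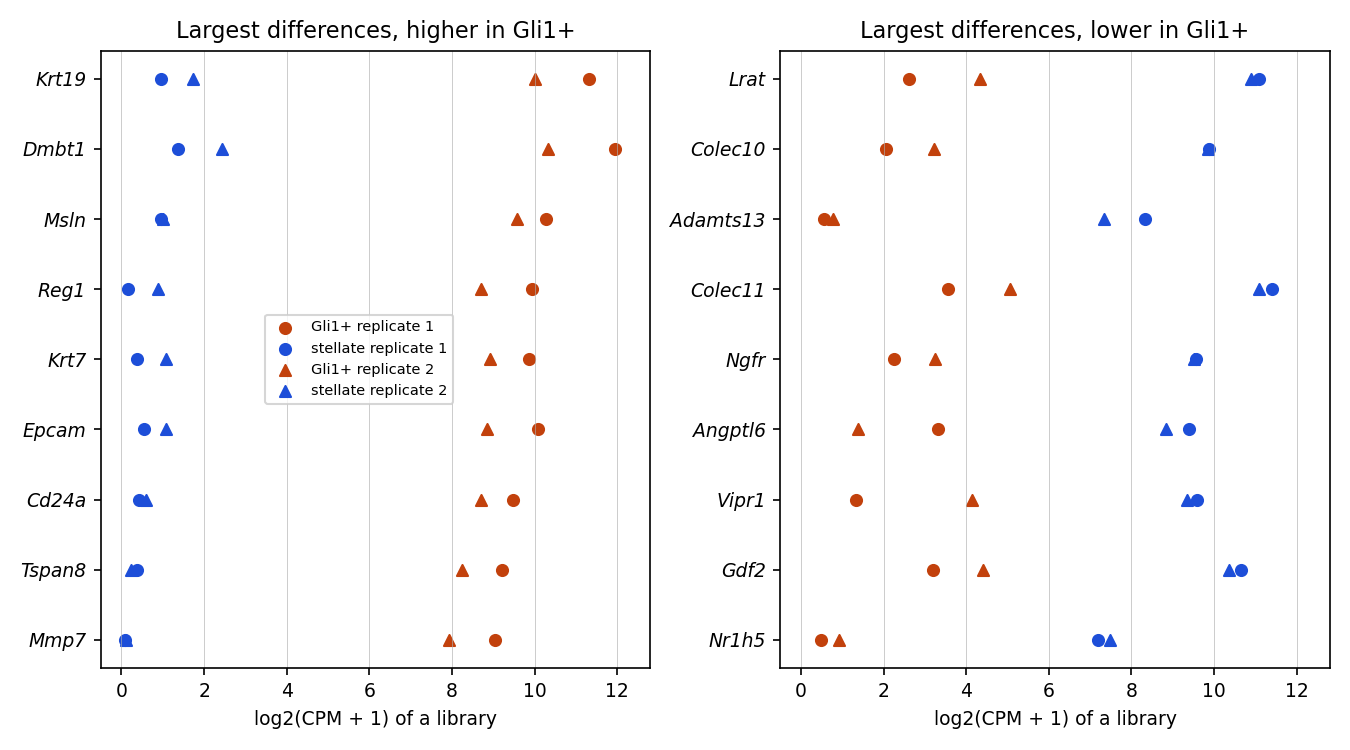
Log2(CPM + 1) of each library after BDL for the 9 held genes of largest difference in each direction, with orange for Gli1+ and blue for stellate libraries, circles for replicate 1 and triangles for replicate 2. In all 18 genes the 2 libraries of a population lie closer to each other than to those of the other population. The genes were chosen for large differences without overlap, so this is no added support.

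Receptors for vasoactive signals and hormones formed the signalling list with the largest share of lower members. Of 47 such genes, 15 were lower and 1 was higher in Gli1+ cells, against 2.36% and 4.44% of all genes, and 6 of the lower genes held. Of the lower genes, Vipr1, Pth1r and Ednrb are also on the list of stellate markers. Vipr1 (chromosome 9, 121642716 to 121672954, plus strand), a receptor of vasoactive intestinal peptide, was read at 1.53 and 16.7 CPM against 767 and 649 CPM, and Pth1r, the receptor of parathyroid hormone, at 7.98 and 34.7 CPM against 518 and 802 CPM. Agtr1a (chromosome 13, 30336441 to 30382867, plus strand), a receptor of angiotensin II, was read at 43.2 and 35.3 CPM against 1735 and 1022 CPM. Adra2b, an adrenergic receptor, was read at 5.64 and 7.24 CPM against 375 and 438 CPM. In these 4 genes the lower stellate library exceeded the higher Gli1+ library. Their differences were -6.72 ± 0.75, -5.17 ± 0.60, -5.06 ± 0.43 and -5.78 ± 0.39 (limma BH-adjusted p = 0.00187, 0.00235, 0.000885 and 0.000507). The remaining genes of this paragraph, apart from Edn1, were named after their values were seen. The endothelin receptor Ednra, at 15.1 and 14.1 CPM against 564 and 428 CPM, held, whereas Ednrb, at 14.3 and 70.2 CPM against 986 and 905 CPM, did not (largest limma BH-adjusted p 0.101). Edn1, the gene of the ligand endothelin and the higher gene of the list, went the other way at 53.4 and 51.9 CPM against 0.234 and 0.17 CPM (5.48 ± 0.87; limma BH-adjusted p = 0.00813, up to 0.0925 without 1 library). Ramp1 and Calcrl together form the receptor of the neuropeptide CGRP. Ramp1 was at 23.9 and 40.3 CPM against 956 and 829 CPM and held, and Calcrl was at 36.9 and 57.8 CPM against 368 and 619 CPM and did not (largest limma BH-adjusted p 0.273). Gucy1a1 and Gucy1b1, the subunits of the enzyme that senses nitric oxide, were at 14.1 and 61.2 CPM against 518 and 454 CPM and 8.7 and 14.1 CPM against 259.7 and 267 CPM, with largest limma BH-adjusted p of 0.0985 and 0.126. Adm, a dilating peptide that acts on Calcrl receptors and is not counted in the list, was at 23.1 and 25.4 CPM against 277 and 158 CPM and held. The lower members of the list numbered 8, 12, 6 and 9 without Gli1+ replicate 1, Gli1+ replicate 2, stellate replicate 1 and stellate replicate 2.

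The sulfonylurea receptor Abcc9, a subunit of potassium channels that open when ATP is low, followed the same direction. It was read at 44 and 107 CPM against 1750.3 and 2112 CPM and held (-4.79 ± 0.43; limma BH-adjusted p = 0.000932). Kcnj8, the pore subunit of that channel, was at 35.8 and 34.7 CPM against 467 and 349 CPM but did not hold (largest limma BH-adjusted p 0.0949). Of 42 ion channels and pumps, 5 were higher and 3 lower. The higher ones included Atp1b1, a subunit of the sodium pump, at 684 and 266 CPM against 14.8 and 3.65 CPM, and Kcnn4, a calcium-gated potassium channel, at 238 and 59.4 CPM against 2.57 and 2.72 CPM. Both were higher in Gli1+ replicate 1 than in replicate 2, and neither held. The 28 contractile genes showed no common direction, with 3 higher and 4 lower and a median of 0.03, but 1 higher, 5 lower and a median of -0.13 after TMM scaling. Acta2, smooth muscle actin, was at 761 and 840.1 CPM against 128 and 348 CPM and passed in CPM (limma BH-adjusted p = 0.0495) but not after TMM scaling (0.0832). Des, the filament protein desmin, was at 51.3 and 74.7 CPM against 331 and 331 CPM and Ppp1r14a, an inhibitor of myosin phosphatase, at 22 and 32.9 CPM against 255 and 384 CPM, both lower in Gli1+ cells without holding (largest limma BH-adjusted p 0.101 and 0.0666). Cnn1 and Actg2 of smooth muscle were read at 31.2 and 9.7 CPM against 0.292 and 1.19 CPM and 59 and 84.1 CPM against 1.52 and 6.97 CPM, both higher in Gli1+ cells with largest limma BH-adjusted p of 0.273 and 0.167.

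Neural and guidance genes lay on both sides. Of 56 genes, 11 were lower and 9 higher in Gli1+ cells, and 7 and 2 of these held. Of the lower genes, Ngfr and Reln are also on the list of stellate markers. Ngfr (chromosome 11, 95568818 to 95587735, minus strand), the p75 receptor of neurotrophins, was read at 3.79 and 8.5 CPM against 749 and 727 CPM. Reln (chromosome 5, 21884454 to 22344702, minus strand), a large secreted glycoprotein that guides migrating neurons, was read at 83.2 and 43.6 CPM against 3774 and 3788 CPM. Ntn1, the guidance cue netrin 1, was at 29.6 and 19.6 CPM against 577 and 599.9 CPM. All 3 genes were higher in both stellate libraries than in either Gli1+ library, and all 3 held, with differences from -6.78 (Ngfr) to -4.55 (Ntn1). Ntn1 was named after its values were seen. Slit and its receptor lay on opposite sides. Slit3, a secreted repellent, was at 164 and 162 CPM against 6.31 and 8.92 CPM (4.27 ± 0.48), and Robo2, a receptor of Slit proteins, was at 3.79 and 4.19 CPM against 136 and 179.7 CPM (-4.98 ± 0.49), and both held. Sema3c, a secreted semaphorin, was at 85.4 and 119.7 CPM against 0.234 and 0.255 CPM and held (6.36 ± 0.59). Without Gli1+ replicate 1, Gli1+ replicate 2, stellate replicate 1 and stellate replicate 2, the lower genes numbered 7, 9, 7 and 7 and the higher genes 3, 2, 2 and 2. Schwann and glial markers, which can reach such lists, summed to 679 and 416 against 315 and 261 CPM, and of 13 such genes 1 and 1 against 4 and 2 were at 0.

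Ligands of the BMP family and their antagonists lay on both sides. Of 35 BMP ligands, receptors and antagonists, 7 were lower and 3 higher in Gli1+ cells. Gdf2 (chromosome 14, 33941039 to 33947198, plus strand), the ligand BMP9 that circulates from the liver, was read at 8.14 and 20.3 CPM against 1597 and 1303 CPM, and its relative Bmp10 at 0.161 and 0.12 CPM against 105 and 84.6 CPM. Gdf10 was read at 67.9 and 103 CPM against 751 and 1056 CPM and Bmp5 at 1.45 and 6.76 CPM against 173 and 125 CPM. The 4 ligands were higher in both stellate libraries. Gdf2 and Gdf10 held, with differences of -6.69 ± 0.47 and -3.40 ± 0.35 (limma BH-adjusted p = 0.000507 and 0.00144). Bmp10 and Bmp5, named after their values were seen, did not hold (largest limma BH-adjusted p 0.0514 and 0.0829). The BMP genes on the Gli1+ side included Nbl1, a secreted antagonist, at 226 and 194 CPM against 14.7 and 3.4 CPM, and Bmp7 at 9.83 and 9.7 CPM against 0.0584 and 0 CPM, and neither held. Bmp7 had 1 read over the stellate libraries, for a ratio of 282 (95% interval 50.2 to 11175).

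Hgf (chromosome 5, 16553495 to 16620152, plus strand), the growth factor that drives hepatocyte division through the receptor Met, was read at 5.8 and 15.1 CPM against 955 and 606 CPM and held (-6.18 ± 0.64; limma BH-adjusted p = 0.00145). Met, which epithelial cells carry, was at 77.4 and 61.5 CPM against 0.117 and 0.849 CPM, higher in the libraries with cholangiocyte and mesothelial markers, and did not hold (largest limma BH-adjusted p 0.0632). Fgfr2, a receptor of fibroblast growth factors, was at 45.5 and 68.4 CPM against 835 and 1115 CPM (largest limma BH-adjusted p 0.0679), and both Met and Fgfr2 were named after their values were seen. Igfbp5 and Igfbp6, which bind insulin-like growth factors, stood on the Gli1+ side. Igfbp5 was read at 224 and 1129.5 CPM against 0.934 and 5.78 CPM and Igfbp6 at 773 and 625 CPM against 1.4 and 3.57 CPM, and both held (7.12 ± 0.79 and 7.72 ± 0.41). Igfbp5 differed between the Gli1+ libraries, but its lower value exceeded both stellate libraries. Of 39 genes of these axes, 8 were higher and 3 lower. Hgf, Angptl6 and Pdgfrb are also on the list of stellate markers, and Igfbp6 is on the portal list. The angiopoietin-like protein Angptl6 was at 8.95 and 1.62 CPM against 672 and 459.7 CPM and held (-6.77 ± 0.59), while receptors of platelet-derived growth factor, Pdgfrb at 77.5 and 130.0 CPM against 504 and 831 CPM and Pdgfra at 114 and 152 CPM against 446 and 464 CPM, were lower in Gli1+ cells without holding (largest limma BH-adjusted p 0.182 and 0.183; Pdgfra was named after its values were seen).

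R-spondins, secreted proteins that strengthen Wnt signals, differed by member. Rspo3 (chromosome 10, 29452416 to 29535867, minus strand) was read at 12.7 and 25.1 CPM against 648 and 589 CPM and Rspo1 (chromosome 4, 124986430 to 125009099, plus strand), which is also a mesothelial marker, at 87.6 and 125 CPM against 0.175 and 0.255 CPM. Each R-spondin thus stood in a separate range by population, in opposite directions, and both held (-5.03 ± 0.53 and 6.44 ± 0.59; limma BH-adjusted p = 0.00152 and 0.000972). Sfrp1, a secreted protein that binds Wnt ligands, was at 173 and 440.5 CPM against 2.45 and 0.34 CPM and held (7.01 ± 0.69). Of 42 Wnt genes, 9 were on the Gli1+ side and 4 on the stellate side, and without each BDL library in turn the higher genes numbered 4, 6, 2 and 2 (Gli1+ replicates 1 and 2, then stellate replicates 1 and 2). Among 22 Hedgehog genes 2 were higher and 1 was lower. Hhip, a surface protein that binds and removes Hedgehog ligands, was at 1.69 and 4.61 CPM against 279 and 243 CPM and held (-6.07 ± 0.58). It is also on the list of stellate markers. Ptch1, the Hedgehog receptor and a target of Gli1, was at 29.3 and 56.6 CPM against 28 and 81 CPM with overlap between the populations (limma BH-adjusted p = 0.903). Gas1, a coreceptor, was at 145 and 345 CPM against 18.1 and 56.2 CPM, and Gli2, a related transcription factor, at 8.62 and 7.36 CPM against 0.0584 and 0.0849 CPM, and neither held (largest limma BH-adjusted p 0.234 and 0.197). The TGF-beta list (33 genes) had 3 higher and 3 lower, with the coreceptor Eng at 199 and 240.0 CPM against 1811 and 1533 CPM and Lrrc32, which tethers latent TGF-beta, at 53.6 and 76.6 CPM against 411 and 493 CPM. On the other side Ltbp2, a latent TGF-beta binding protein of microfibrils, was at 103 and 119.7 CPM against 3.68 and 4.93 CPM, and Itgb6, an epithelial integrin chain that activates TGF-beta, at 42 and 24.8 CPM against 0 and 0 CPM. None of these 4 held (largest limma BH-adjusted p 0.0985, 0.0657, 0.0925 and 0.115). All 359 listed signalling genes together had 43 higher and 53 lower members, which became 11, 16, 8 and 9 higher and 24, 38, 21 and 25 lower members when Gli1+ replicate 1, Gli1+ replicate 2, stellate replicate 1 or stellate replicate 2 was left out.

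Tcf21 (chromosome 10, 22817281 to 22820174, minus strand), a factor of visceral mesenchyme, was read at 18.4 and 37.1 CPM against 566 and 527 CPM and was the member that held (-4.33 ± 0.41; limma BH-adjusted p = 0.00104). Osr1, a zinc finger factor, was at 60.9 and 25.5 CPM against 0.0584 and 0.0849 CPM, with 2 reads over the stellate libraries and a ratio of 587 (95% interval 162 to 4850.5). Wt1, a factor of mesothelium, was at 88.3 and 95.5 CPM against 0.117 and 2.97 CPM. It is also on the list of mesothelial markers, so their sum includes it. Osr1 and Wt1 did not hold (largest limma BH-adjusted p 0.0689 and 0.163), and the Wt1 values stood beside a mesothelial marker sum that was also higher in both Gli1+ libraries. Hand2, named after its values were seen, was at 22.4 and 44.2 CPM against 141 and 189 CPM (largest limma BH-adjusted p 0.276), and reads of its antisense neighbour cannot be told apart without a known strand setting. In all 41 factors, 6 were higher and 8 lower. Over all 132 genes listed for identity (markers of both populations, these factors, nuclear receptors and retinoid genes), 24 were higher and 31 lower, and leaving out Gli1+ replicate 1 or 2 or stellate replicate 1 or 2 gave 7, 9, 8 and 10 higher and 13, 22, 14 and 14 lower genes.

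**Figure D4:**
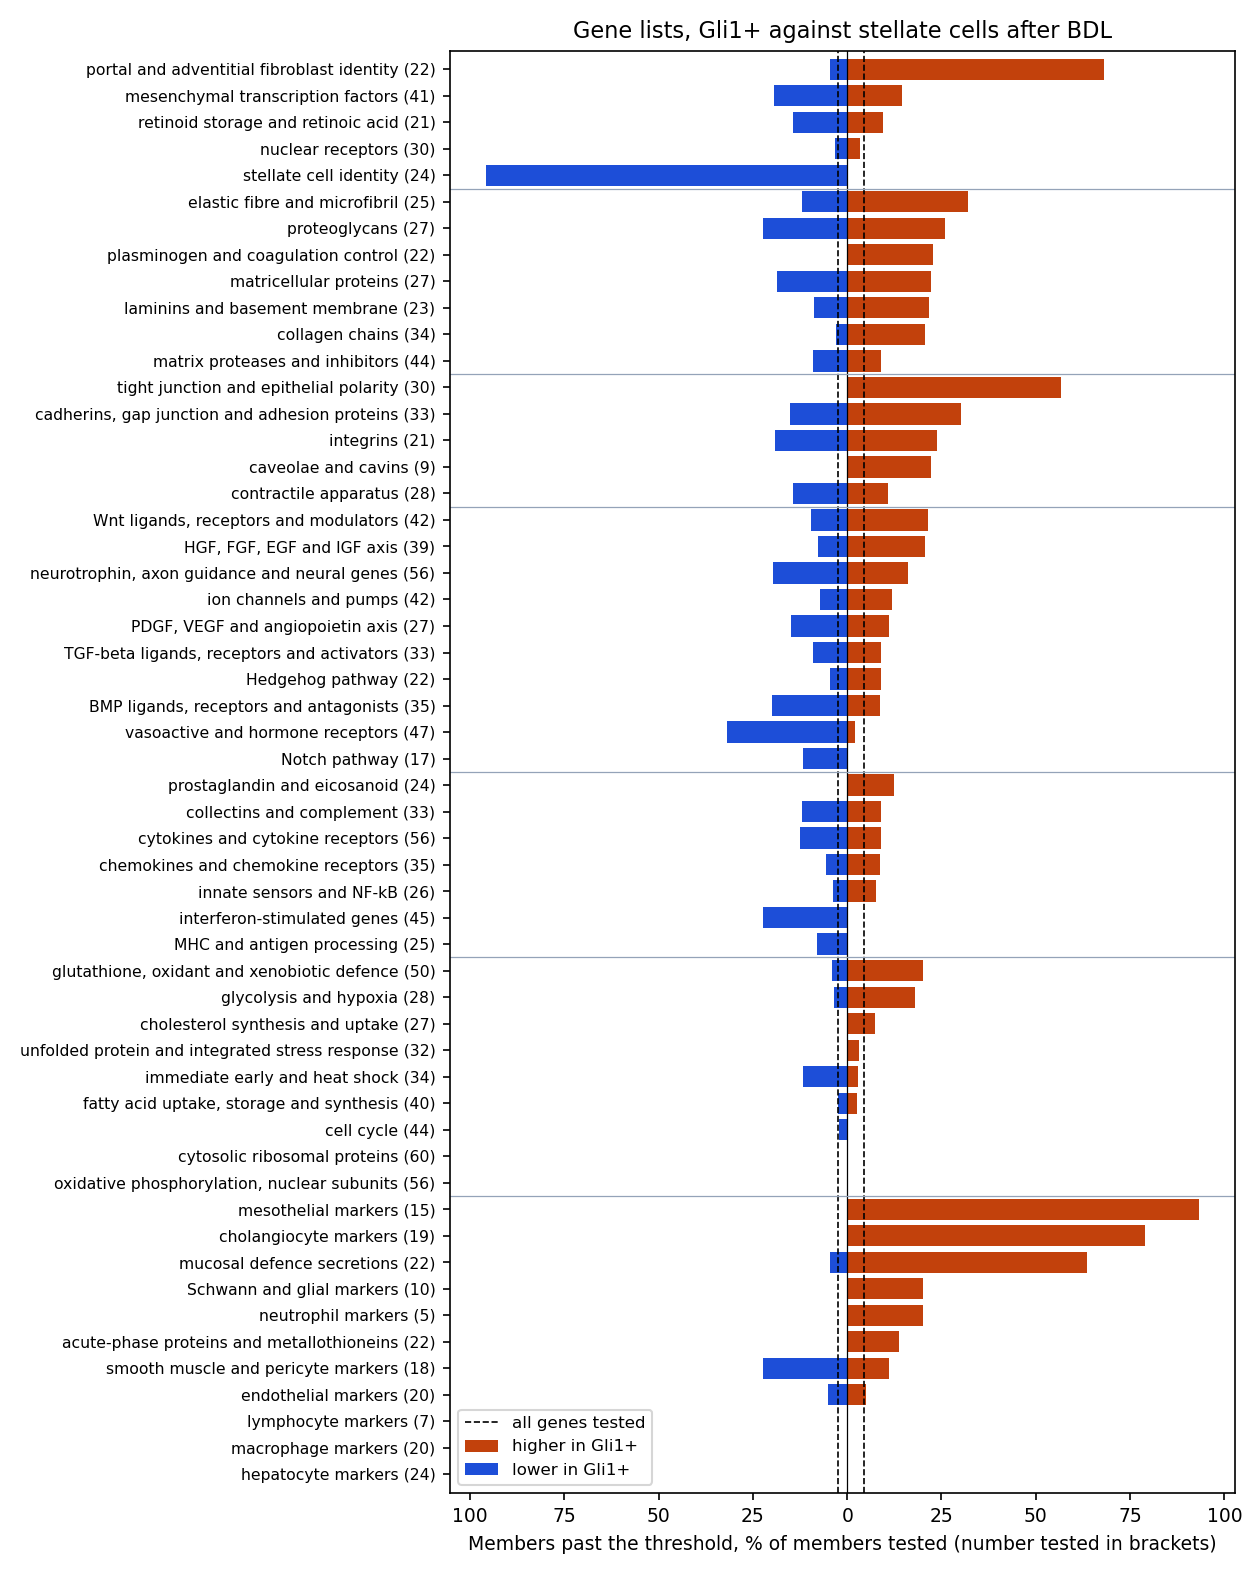
For each gene list, the share of tested members higher (orange, right) or lower (blue, left) in Gli1+ than in stellate cells after BDL at a limma BH-adjusted p under 0.05, with the number tested in brackets. Dashed lines mark the shares of all genes, 4.44% and 2.36%. The stellate list reaches furthest left and the mesothelial list furthest right, while no bar stands at the oxidative phosphorylation, ribosomal, hepatocyte, macrophage and lymphocyte lists.

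Matrix genes lay on both sides. Of 25 genes of elastic fibres and microfibrils, 8 were higher and 3 lower in Gli1+ cells. Of 22 portal and adventitial fibroblast markers, 15 were higher (6, 6, 8 and 9 without Gli1+ replicate 1, Gli1+ replicate 2, stellate replicate 1 and stellate replicate 2), again a list chosen to mark the population. Fbln2, a fibulin of elastic fibres, was read at 529 and 369.5 CPM against 1.58 and 4.33 CPM, and Mfap4, a microfibril protein, at 383 and 240.0 CPM against 2.34 and 0.51 CPM. Dpt, dermatopontin, was read at 503 and 304 CPM against 22.9 and 21.7 CPM. These 3 held, with differences of 6.90 ± 0.52, 7.08 ± 0.70 and 4.07 ± 0.43 (limma BH-adjusted p = 0.00052, 0.00118 and 0.0016). Eln, the gene of elastin, was at 326 and 786 CPM against 26.9 and 56.7 CPM, Mfap5 at 809.9 and 196 CPM against 0.467 and 1.1 CPM and Mgp, an inhibitor of vessel calcification, at 568 and 1413 CPM against 6.01 and 27.9 CPM. Each of these was above both stellate libraries but did not hold (largest limma BH-adjusted p 0.0879, 0.0514 and 0.0517; Mfap5 and Mgp were named after their values were seen). Thy1, a surface protein of portal fibroblasts, was at 64 and 52 CPM against 4.73 and 4.67 CPM (largest limma BH-adjusted p 0.15). Emilin1 was the listed portal marker that passed in the other direction, at 87.1 and 164 CPM against 1272 and 1279 CPM (-3.40 ± 0.41; limma BH-adjusted p = 0.00297, up to 0.0553 without 1 library).

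On the stellate side, Ecm1, a secreted matrix protein, was read at 617 and 554 CPM against 13796 and 10640.0 CPM. Tgfbi, an adhesive matrix protein, was at 224 and 168 CPM against 4739 and 4635 CPM, and Prelp, a leucine-rich proteoglycan that anchors basement membranes, at 149.8 and 212 CPM against 2325 and 1948 CPM. Adamts10, a secreted protease of microfibrils, was at 22.6 and 25.1 CPM against 174 and 184 CPM. All 4 were below in both Gli1+ libraries and held, with differences of -4.37 ± 0.41, -4.59 ± 0.44, -3.57 ± 0.38 and -2.86 ± 0.34. Dcn, decorin, was at 3506 and 3898 CPM against 28872 and 30883 CPM, and Bgn, biglycan, at 1467 and 1582 CPM against 5987 and 6729 CPM. Both are collagen-binding proteoglycans, named after their values were seen, and neither held (largest limma BH-adjusted p 0.113 and 0.103). Gpc3, a cell surface heparan sulfate proteoglycan, stood on the Gli1+ side at 154 and 216 CPM against 7.53 and 2.72 CPM and held (5.02 ± 0.57). The proteoglycan list (27 genes) thus had 7 higher and 6 lower members. Sod3, the superoxide dismutase that binds matrix outside the cell, was at 280.2 and 286 CPM against 5609.9 and 4434 CPM and held (-4.14 ± 0.40). Ecm1 and Sod3 are also on the list of stellate markers.

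No collagen call held. Of 34 chains, 7 were higher and 1 was lower in Gli1+ cells, and 4 and 1 after TMM scaling; without each of the 4 BDL libraries in turn 0, 0, 0 and 0 were higher. Col1a1 was at 4945 and 5051 CPM against 989 and 1835 CPM and passed in CPM (1.89 ± 0.43; limma BH-adjusted p = 0.0334) but not after TMM scaling (0.0601) or without any 1 of the 4 BDL libraries (up to 0.289). Col14a1, a chain that sits on collagen fibrils, was the lower one at 249 and 358 CPM against 2119 and 2392 CPM (largest limma BH-adjusted p 0.0615). Col4a5, of basement membranes, was at 106 and 172 CPM against 4.85 and 4.67 CPM (largest limma BH-adjusted p 0.0962). The laminin chains Lama1 and Lamb1 were lower in Gli1+ cells, at 8.46 and 5.81 CPM against 341 and 334 CPM and 141 and 97.5 CPM against 689 and 808 CPM, and neither held (largest limma BH-adjusted p 0.0876 and 0.178). Over all 202 matrix genes, 42 were higher and 21 lower, and without Gli1+ replicate 1, Gli1+ replicate 2, stellate replicate 1 and stellate replicate 2 the higher genes numbered 9, 9, 8 and 12 and the lower genes 5, 8, 5 and 8.

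Epithelial, mesothelial and mucosal transcripts were far higher in the Gli1+ libraries. Of 19 cholangiocyte markers 15 were higher, of 15 mesothelial markers 14, of 22 genes of mucosal secretions 14, and of 30 genes of tight junctions and polarity 17. Which cells of the sort held these transcripts cannot be told from bulk libraries. Krt19 (chromosome 11, 100140810 to 100148665, minus strand), a keratin shared by bile duct and mesothelial cells, was read at 2559 and 1023 CPM against 0.934 and 2.29 CPM. Epcam, an adhesion protein of epithelium, was at 1077 and 459 CPM against 0.467 and 1.1 CPM, and Tspan8, a tetraspanin of biliary epithelium, at 595 and 299 CPM against 0.292 and 0.17 CPM. Msln, mesothelin, was at 1246 and 764 CPM against 0.934 and 1.02 CPM, and Upk1b and Gpm6a of the same list were at 350.4 and 255 CPM against 0.35 and 0.425 CPM and 370.4 and 361 CPM against 3.97 and 0.255 CPM. These 6 genes held, and Krt19 and Epcam were more than 2 times as high in Gli1+ replicate 1 as in replicate 2. Cdh1, the epithelial cadherin, was at 397 and 269.5 CPM against 1.17 and 1.19 CPM (largest limma BH-adjusted p 0.0556). The claudins Cldn2, Cldn4 and Cldn7, tight junction proteins named after their values were seen, were at 713 and 272 CPM against 4.03 and 0.34 CPM, 136 and 91.2 CPM against 0 and 0 CPM and 389 and 116 CPM against 0.175 and 0.425 CPM (largest limma BH-adjusted p 0.06, 0.0726 and 0.0691). Cldn4 had no read in the stellate libraries and was at least 1063-fold higher, against 3 reads over both. The epithelial transcription factors Klf5 and Ehf, also named after their values were seen, were at 209.9 and 117 CPM against 0.0584 and 0.425 CPM and 259 and 115 CPM against 0.117 and 0.34 CPM, and both held. Without Gli1+ replicate 1, Gli1+ replicate 2, stellate replicate 1 and stellate replicate 2 the higher mesothelial markers numbered 10, 9, 10 and 11, the higher cholangiocyte markers 5, 10, 5 and 7, the higher junction genes 2, 11, 3 and 5 and the higher mucosal genes 4, 5, 5 and 7.

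Secreted proteins of mucosal surfaces were among these genes. Dmbt1 (chromosome 7, 131032053 to 131121630, plus strand), a scavenger receptor glycoprotein that binds bacteria, was read at 3919.6 and 1282 CPM against 1.58 and 4.42 CPM, Reg1 at 985 and 416 CPM against 0.117 and 0.849 CPM and Reg3b (chromosome 6, 78370657 to 78373466, plus strand) at 673 and 209 CPM against 0.117 and 0.425 CPM. Reg proteins are small secreted lectins made by epithelium in injury. Mmp7 (chromosome 9, 7692090 to 7699585, plus strand), the epithelial protease matrilysin, was at 523 and 244 CPM against 0.0584 and 0.0849 CPM, where the stellate values are 2 reads in all and the ratio was 5249 (95% interval 1453 to 43347). The 4 genes held, with limma BH-adjusted p of 0.000665, 0.000932, 0.00135 and 0.000906, and each was at least 2 times as high in Gli1+ replicate 1 as in replicate 2. Cholangiocyte and mesothelial sums both had this order, but both include Krt19, at 2559 and 1023 CPM in Gli1+ replicates 1 and 2. The sums are therefore not separate, and some mesothelial markers, such as Rspo1 and Wt1, had the other order. The part of those cells was not tested. Slpi, a protease inhibitor of mucosa, was at 1645 and 2234 CPM against 2.69 and 25.9 CPM and Lcn2, lipocalin 2, at 1119 and 581 CPM against 8.29 and 44.3 CPM, and neither held (largest limma BH-adjusted p 0.087 and 0.132). Clca3a1, a secreted protein named for chloride channels, was the member of this list on the stellate side, at 18.2 and 40.7 CPM against 812 and 819 CPM (largest limma BH-adjusted p 0.119). Cpe, a carboxypeptidase that trims peptide hormones, and Cilp, a matrix protein known from cartilage, were on no epithelial list. They were at 546 and 544 CPM against 0.701 and 1.36 CPM and 317 and 372 CPM against 0.35 and 0.68 CPM, and both held (8.09 ± 0.69 and 7.84 ± 0.54). In Cilp Gli1+ replicate 2 had the higher value. Cd200, a surface glycoprotein that restrains myeloid cells, and Pdpn, podoplanin of mesothelium and fibroblasts, named after their values were seen, held at 118 and 141 CPM against 0.117 and 0.68 CPM and 303 and 126 CPM against 0.584 and 2.12 CPM.

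Part of the interferon response was lower in Gli1+ cells. The genes numbered 10 of 45 tested, with 0 higher, against 2.36% of all genes. Of the 45, 39 had a difference below 0, while 9941 of all 16446 genes lay above 0. The median of the list was -1.42 (-1.58 after TMM scaling). Ifit3 (chromosome 19, 34583531 to 34588731, plus strand), which dampens viral replication and is induced by interferon, was read at 3.95 and 4.01 CPM against 115 and 86.2 CPM, and Rtp4, a chaperone of receptors that is also induced, at 42.5 and 32.4 CPM against 299 and 259 CPM. Both held (-4.34 ± 0.47 and -2.87 ± 0.32; limma BH-adjusted p = 0.00168 and 0.00203). Isg15, a ubiquitin-like modifier, was at 2.18 and 2.39 CPM against 31.2 and 28.5 CPM and Ifit3b at 1.05 and 2.27 CPM against 33.4 and 34.2 CPM. They were named after their values were seen, and neither held (largest limma BH-adjusted p 0.178 and 0.134). Ifit3 and Ifit3b are near-identical copies, so the division of reads between them is uncertain. The lower members numbered 2, 4, 2 and 3 without Gli1+ replicate 1, Gli1+ replicate 2, stellate replicate 1 and stellate replicate 2. In uninjured Gli1+ cells 10 of the list were lower and 1 higher, with Ifit3 at 23.1 and 11.5 CPM against 210.0 and 181 CPM. Endothelial markers were lower in both Gli1+ libraries after BDL, like these genes, with sums of 1262 and 2253 against 4463 and 3237 CPM, and macrophage markers overlapped, at 2458 and 3727 against 2497 and 1738 CPM. Before injury the endothelial sums were 1641 and 615 against 1107 and 389 CPM. The macrophage sums were then 4633 and 2229 against 15083.5 and 87.4 CPM. The part of these cells in the interferon genes was not tested.

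Promoter sequence is shown for these genes because interferon acts through a short repeated element. A core of that element, GAAANNGAA, was searched on both strands from 250 bases before to 50 bases after the gene start, in the promoter table of RefSeq on GRCm38.p6. It was in 7.43% of 14880 promoters of tested genes, in 6.31% of 650 promoters of the higher and 10.9% of 357 promoters of the lower genes. Of the interferon-stimulated genes tested, 34 were matched to the table and 22 of them held the core. Of the 10 lower ones 8 were matched, and 6 held it. The stretches below lie before the start of the gene and are written 5′ to 3′ on the strand of the gene, with each match in capitals (in Ifit3 and Ifit3b as the reverse complement of the core). Those of Ifit3 (chr19:34583359-34583438, plus strand) and Ifit3b (chr19:34607757-34607836, plus strand) carry 3 matches each, and that of Isg15 (chr4:156200869-156200913, minus strand) carries 3 matches that overlap.
Ifit3: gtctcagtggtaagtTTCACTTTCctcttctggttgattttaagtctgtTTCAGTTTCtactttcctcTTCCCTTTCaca
Ifit3b: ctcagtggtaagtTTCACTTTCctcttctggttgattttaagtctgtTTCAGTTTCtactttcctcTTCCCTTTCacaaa
Isg15: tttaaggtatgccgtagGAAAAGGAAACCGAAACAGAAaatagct
A match is a description of the letters and was not tested as a site.

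Other immune genes lay on both sides. Of 56 cytokines and receptors, 5 were higher and 7 lower, and of 35 chemokines and receptors 3 and 2. Cxcl12, a chemokine that retains blood cells in tissue, was at 243 and 540.3 CPM against 3735 and 3453 CPM, and Il34, a ligand of the receptor of macrophage growth factor, at 20.9 and 1.5 CPM against 180.0 and 213 CPM, both lower in Gli1+ cells. Cxcl5, a chemokine for neutrophils, was at 259.9 and 127 CPM against 0.117 and 7.82 CPM, and Il18r1, a receptor of interleukin 18, at 45.8 and 58.8 CPM against 0.117 and 0.255 CPM. None of the 4 held (largest limma BH-adjusted p 0.0709, 0.153, 0.221 and 0.0502). C3, the central protein of complement, was at 3504 and 5032 CPM against 116 and 254 CPM, and Clu, a complement inhibitor and chaperone, at 15714 and 6039 CPM against 563 and 461 CPM, both higher in Gli1+ cells (largest limma BH-adjusted p 0.0757 and 0.0608). Hepatocytes also make C3 and Clu, and hepatocyte markers were higher in both Gli1+ libraries (5117 and 26486 against 2850 and 3229 CPM). In uninjured Gli1+ replicates 1 and 2 the hepatocyte sums were 2349 and 521 CPM. There C3 was at 6036 and 23184 CPM and Clu at 6415 and 3092 CPM. The part of hepatocytes was not tested. In the list of antigen presentation 2 of 25 genes, both of class I, were lower in Gli1+ cells, with a median of -1.06 (-1.22 after TMM scaling). H2-D1 was at 1542 and 973 CPM against 7905 and 3766 CPM and H2-T23 at 36.1 and 55.1 CPM against 145 and 201 CPM, members of a family of close copies, and neither held (largest limma BH-adjusted p 0.304 and 0.169). The 244 listed immune genes came to 16 higher and 26 lower in all, and to 4, 5, 1 and 3 higher and 6, 12, 4 and 6 lower in the fits that left out Gli1+ replicate 1, Gli1+ replicate 2, stellate replicate 1 and stellate replicate 2.

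Of 50 genes of glutathione, oxidant and xenobiotic defence, 10 were on the Gli1+ side and 2 on the stellate side. Fmo2, a flavin monooxygenase, was at 144 and 303 CPM against 0.817 and 0.34 CPM, and Cyp2s1, a cytochrome P450 of epithelia, at 79.6 and 92.7 CPM against 0.175 and 0.0849 CPM, and both held (7.07 ± 0.62 and 6.27 ± 0.61). Of 27 genes of cholesterol synthesis and uptake 2 were higher (7.41%, against 4.44% of all genes). All 27 had a difference above 0 (median 1.46, and 1.30 after TMM scaling), as had 9941 of all 16446 genes (8922 after TMM scaling). Hmgcs1, an early enzyme of the pathway, was at 269.9 and 381 CPM against 56 and 55.3 CPM and Cyp51, a later one, at 158 and 138 CPM against 35 and 48.5 CPM. Neither held (largest limma BH-adjusted p 0.0879 and 0.279). Over 370 metabolic and housekeeping genes, 20 were higher and 9 lower, and omitting the BDL libraries 1 at a time in the order used above left 2, 5, 2 and 2 higher and 1, 3, 1 and 1 lower. In uninjured cells the median of the cholesterol list was 0.58 and Hmgcs1 was at 86.2 and 56 CPM against 46.4 and 31.6 CPM.

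Cholesterol genes are switched on by SREBP factors through the sterol element, so its core TCACNCCAC was searched in the same promoters. It was in 1.10% of the 14880 promoters of tested genes, and of 19 matched cholesterol genes Hmgcs1 had it. The stretch below (chr13:119690191-119690240, plus strand, GRCm38.p6) lies before the start in the RefSeq table, 5′ to 3′, with the match in capitals.
Hmgcs1: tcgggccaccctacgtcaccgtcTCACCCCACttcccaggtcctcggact
A core of GLI sites, GACCACCCA, was in 0.215% of the promoters of tested genes and in 0 of 18 promoters of Hedgehog genes, which says only that these letters are not in these windows.

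By limma, 0 of 56 nuclear genes of oxidative phosphorylation and 0 of 60 genes of cytosolic ribosomal proteins passed, and 15 and 9 were higher at an unadjusted p under 0.05; DESeq2 called 1 of each, and edgeR and limma-voom 0 of each. Their medians were nevertheless above 0, at 0.62 and 0.77, and 0.46 and 0.60 after TMM scaling, beside 0.23 and 0.09 for all genes. Atp5b, a subunit of ATP synthase, was at 1128 and 872 CPM against 579 and 568 CPM and Rpl4, a protein of the large ribosomal subunit, at 1311 and 936 CPM against 624 and 701 CPM, each without overlap between populations and with a limma BH-adjusted p of 0.156 and 0.248. Reads of ribosomal proteins can also match their many pseudogenes. Of 34 immediate early and heat shock genes, 4 were lower and 1 was higher in Gli1+ cells. The immediate early factors Egr1, named after its values were seen, and Junb were at 173 and 263 CPM against 941 and 602 CPM and 208 and 242 CPM against 1288 and 587 CPM (largest limma BH-adjusted p 0.225 and 0.336). Egr1 was the gene that passed in opposite directions in the 2 conditions, at 568 and 737 CPM against 157 and 242 CPM before injury (1.72 ± 0.38; limma BH-adjusted p = 0.022), while the limma BH-adjusted p of the difference between the conditions was 0.151. Such genes answer to cell isolation as well as to signals in tissue, and the part of isolation was not tested.

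Most differences after BDL were also there before injury. Uninjured Gli1+ and stellate cells differed in 1822 genes (11.1%) by limma, 1325 higher (8.06%) and 497 lower (3.02%) in Gli1+ cells. The comparisons share no library, but the same fit gave each gene a common spread. Passing in both is therefore not independent. With the 4 uninjured libraries alone, 0 genes passed. Of the 730 genes higher after BDL, 476 (65.2%) were higher before injury too, which is 35.9% of the 1325. Of the 388 lower genes, 270 (69.6%) were lower before injury, which is 54.3% of the 497. Over all 1118 genes the sign was the same before injury in 1028. The share of equal signs among all genes tested was not counted. Both comparisons leaned above 0 there, with medians of 0.23 after BDL and 0.32 before injury, so some agreement of sign is shared by other genes. Another 371 genes passed after BDL and not before, and 282 of them had the same sign before injury, so missing the threshold there does not show a change. Reg3b also passed after BDL only, but with a large shift. It was read at 0.355 and 0.114 CPM against 0.0612 and 0.209 CPM in uninjured Gli1+ and stellate libraries, at or near the level of 3 reads. After BDL it was at 673 and 209 CPM against 0.117 and 0.425 CPM. The difference between its comparisons was 8.10 ± 1.18, which did not pass (limma BH-adjusted p = 0.151). Mmp7 was read at 81.3 and 32.2 CPM against 0.0612 and 0 CPM before injury.

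**Figure D5:**
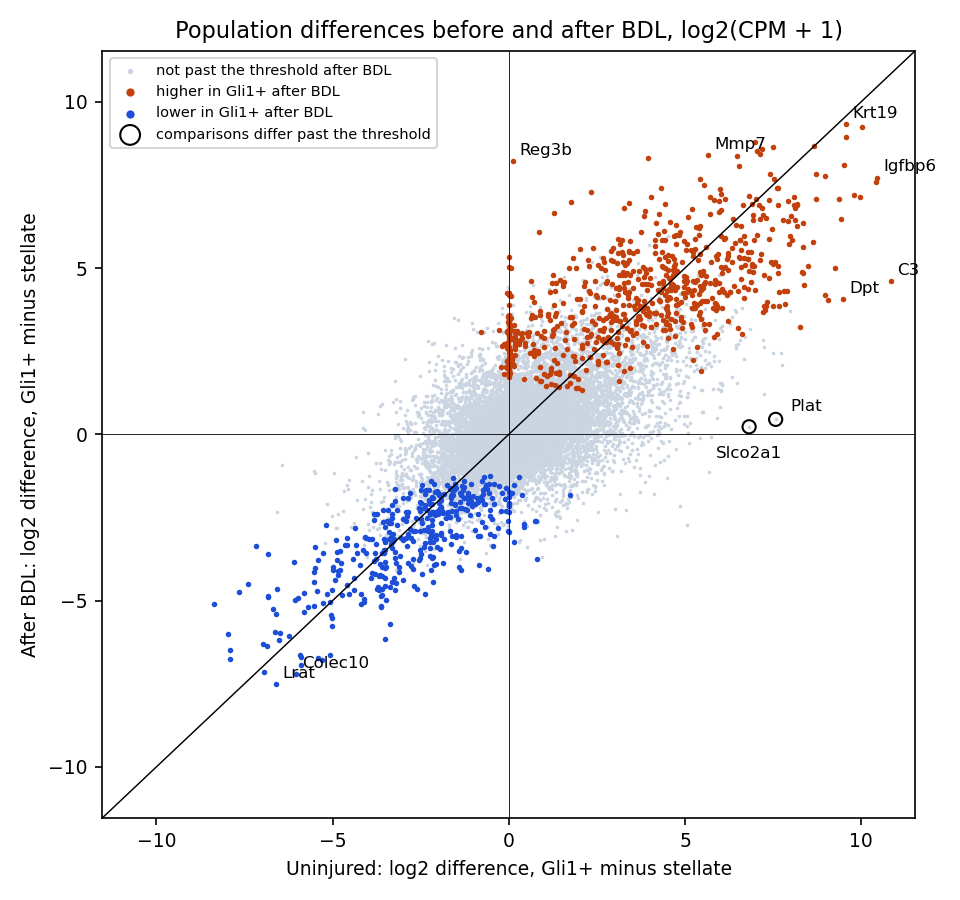
Each point is a gene tested, with the log2 difference between the populations, Gli1+ minus stellate, in uninjured liver on the x axis and after BDL on the y axis, both on log2(CPM + 1). Orange and blue points passed after BDL, the diagonal marks equal differences, and circles mark Plat and Slco2a1, whose comparisons differed. Reg3b lies high on the y axis near 0 on the x axis.

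A test of the difference between the comparisons passed in 2 genes of 16446 (0.0122%) by limma, with 1230 genes at an unadjusted p under 0.05. In Plat (chromosome 8, 22757727 to 22782844, plus strand), tissue plasminogen activator, the populations overlapped after BDL, at 195 and 138 CPM against 85.9 and 167 CPM, and lay apart before it, at 238 and 177 CPM against 0.0612 and 0.104 CPM. In Slco2a1 (chromosome 9, 102988712 to 103096002, plus strand), the carrier that takes up prostaglandins, values after BDL were 122 and 171 CPM against 142 and 107 CPM and uninjured values 121 and 119.9 CPM against 0 and 0.156 CPM. In both genes the Gli1+ libraries stayed in one range while the stellate libraries were near 0 before injury and at the Gli1+ level after BDL. The differences between comparisons were -7.12 ± 0.64 and -6.59 ± 0.58 (SE; limma BH-adjusted p = 0.0175 and 0.0175). Their size rests on uninjured stellate values near 0 and so on the pseudocount: for Plat it was -4.93 with a pseudocount of 5 and -9.69 with 0.1. Both calls were lost without any 1 of the 4 BDL libraries or either uninjured Gli1+ library, with limma BH-adjusted p from 0.203 to 0.294 for Plat and up to 0.445 for Slco2a1. By edgeR 11 genes and by DESeq2 389 genes passed in this test of the difference.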

How the data were processed

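Bulk RNA was measured in 8 libraries, 4 groups of 2. The authors deposited CPM per gene and library, per the file headers. Per the submitters' processing notes, FastQC, STAR 2.5.2b, featureCounts, DESeq2 and the mm10 build were used, with no roles given; strand setting, annotation release and treatment of multi-mapping reads are not given there. All low values were whole multiples of 1 read within 0.1 read, so whole reads were recovered for the count tests. Of 30395 gene identifiers, 30233 matched GENCODE vM21 (GRCm38), from which coordinates come.

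The 16446 genes with 1 CPM or more in 2 or more libraries were fitted on log2(CPM + 1) by limma-trend in R 4.3.3 (limma 3.58.1), with the mean of each of 4 groups, 4 residual degrees of freedom and Benjamini-Hochberg adjustment at 0.05. Contrasts were Gli1+ minus stellate after BDL, the same uninjured, and their difference. Errors are SE of the fit unless named otherwise. Alternatives were edgeR 4.0.16 quasi-likelihood, DESeq2 1.42.0, limma-voom, TMM scaling, other pseudocounts and filters, each library left out, the replicate number as a block, and the 4 libraries alone. On simulated counts limma-trend recovered 7% of 4-fold and 61% of 16-fold changes, all with the right sign. Among 77 calls 9 were unchanged genes, so smaller differences can be missed. The simulation changed far fewer genes than the 1118 that passed here, so these rates need not hold for these data.

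The 54 gene lists were described by counts and medians with no set test. The comparison, members and lists were chosen with earlier results of these data known. Genes were named by rule: in each direction the 12 held genes of largest difference; from each list up to 4 held members per direction, or up to 2 called members where none held; the 2 most abundant members of lists with no call; the called genes of the difference between comparisons; Gli1, Eln, Des, Lrat, Thy1, Pdgfrb, Acta2, Ptch1 and Col1a1; and the 3 most abundant markers of other cells. Genes said to be named after their values were seen fall outside it, and a few genes that the rule names are not reported here. Intervals of ratios are exact 95% intervals for counting error only.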

Additional observations from a re-analysis of the deposited data

Results flagged for a closer look

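Plat and Slco2a1 stood out because the difference between Gli1+ and stellate cells was not the same after BDL as in uninjured liver, by a test of that difference itself. For Plat the log2 difference on CPM + 1 was smaller after BDL (by -7.123; limma BH-adjusted p = 0.0175), and for Slco2a1 also smaller (by -6.593; limma BH-adjusted p = 0.0175). In both genes all 4 Gli1+ libraries and both BDL stellate libraries had similar CPM, and both uninjured stellate libraries were near 0. The cause was not tested.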

How the results depend on the processing

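Without any 1 library, the count of genes differing after BDL ranged from 144 to 1341 (1118 with all libraries), the uninjured count from 1050 to 1782 (1822), and the count for the difference between the comparisons from 0 to 30 (2). The low counts after BDL came without a BDL library (238 and 428 without Gli1+ replicates 1 and 2, 144 and 191 without stellate replicates 1 and 2), where the group has 1 library left. After BDL edgeR called 621 (350 higher, 271 lower) and limma-voom 592, of which 611 and 569 were among the 1118. Pseudocounts of 0.1 and 5, the stricter filter, no filter, TMM scaling and the 4 libraries alone stayed within 1.5 times of 1118. So did DESeq2 and CPM without mitochondrial, hepatocyte and acute-phase genes. On data simulated for this comparison, with far fewer changed genes, DESeq2 also called 148 unchanged genes against 9 by limma-trend. Those counts need not hold for the real data. In uninjured cells no filter gave 810, DESeq2 2996, and the 4 libraries alone 0. For the difference between comparisons, DESeq2 called 389, edgeR 11, limma-voom 0, and a pseudocount of 5 or no filter 0. The cause of the other shifts was not tested. Plat and Slco2a1 lost their calls with a pseudocount of 5, no filter, limma-voom, without any BDL library and without either uninjured Gli1+ library. Of 207 named genes 180 were called, and none reversed. Calls were lost in 63 under limma-voom, 44 under edgeR and 8 after TMM scaling, and in more without a BDL library. Held genes were named because they kept their call without a BDL library and after TMM scaling, so these counts do not measure robustness.

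With the replicate number as a block the counts were 943 after BDL, 1566 uninjured and 0 for the difference between comparisons. Deviations of same-numbered libraries of different groups correlated weakly (from -0.112 to 0.112), and the main fit used no pairing. With 2 libraries per group this cannot tell whether same-numbered libraries share animals or a sort. Depth of 3 reads, at 0.156 to 0.266 CPM over the 8 libraries, limits folds of genes near 0 in stellate cells.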

Other observations

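Some gene groups not described above also lay on opposite sides after BDL. The integrin chains Itga2b and Itgb3, which pair as the fibrinogen receptor best known from platelets, were read at 3.06 and 4.67 CPM against 195 and 147 CPM and 13.3 and 11.4 CPM against 302 and 234 CPM in Gli1+ and stellate replicates 1 and 2. Itgb4, a chain of epithelial attachment, was at 110.3 and 77.6 CPM against 0.117 and 0.425 CPM. Of 21 integrins 5 were on the Gli1+ side and 4 on the stellate side, and these 3 did not hold (largest limma BH-adjusted p 0.0798, 0.0821 and 0.0524). Notch1, a receptor, and Heyl, a target factor of Notch, were both lower at 17.2 and 34.4 CPM against 109 and 142 CPM and 10.6 and 20.2 CPM against 92.2 and 234 CPM (largest limma BH-adjusted p 0.175 and 0.233). Plvap, the diaphragm protein of fenestrated endothelium, was named after its values were seen and held, at 243 and 157 CPM against 10379 and 6196 CPM (-5.35 ± 0.44; limma BH-adjusted p = 0.00079). It was also high in uninjured stellate cells (139 and 157 CPM against 5929 and 12009.5 CPM). The 20 endothelial markers, which do not include it, summed to 1262 and 2253 against 4463 and 3237 CPM after BDL. Before injury these markers summed to 1641 and 615 against 1107 and 389 CPM. Their part in the Plvap values was not tested.

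Hypoxia genes were mixed. Car9, a carbonic anhydrase, and Egln3, an oxygen sensor, both induced by low oxygen, were higher at 86.1 and 26.5 CPM against 0.117 and 0.17 CPM and 67.1 and 50.4 CPM against 1.05 and 0.17 CPM, while Epas1, which encodes an oxygen-regulated factor, was lower at 73.3 and 156 CPM against 635 and 687 CPM. Of 28 genes of glycolysis and hypoxia 5 were higher and 1 lower, and these 3 genes did not hold (largest limma BH-adjusted p 0.273, 0.119 and 0.215). Cav1, the coat protein of caveolae, was at 449 and 223 CPM against 12.4 and 21.3 CPM, and Cdh11, a cadherin of mesenchyme, at 97.7 and 109 CPM against 0.584 and 0.17 CPM, both higher without holding (largest limma BH-adjusted p 0.0687 and 0.0978). F3, tissue factor, which starts coagulation, was at 161 and 76.5 CPM against 11.9 and 2.89 CPM, and 5 of 22 genes of plasminogen and coagulation control were higher and 0 lower. Saa3, an acute-phase protein, was at 1017 and 1263 CPM against 6.36 and 13.3 CPM, beside hepatocyte marker sums of 5117 and 26486 against 2850 and 3229 CPM, whose part was not tested (largest limma BH-adjusted p for F3 and Saa3 0.184 and 0.275).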
